A study of Mus musculus with 4 samples.

Results

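MyoD, encoded by Myod1, is a basic helix-loop-helix transcription factor that binds DNA at the E-box, CANNTG, as a dimer with E proteins such as Tcf3 and Tcf12. Together with Myf5 it commits cells to skeletal muscle. Myog and the Mef2 factors then drive differentiation, in which myoblasts fuse and build sarcomeres from thick myosin filaments, thin actin filaments and the Z discs that anchor them. In the limb, muscle precursors migrate in from the somites, while tendon, cartilage and muscle connective tissue arise from the limb bud itself.

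The comparison set 1 array of tissue labelled fetal limb muscle from MyoD-/- embryos (genotype BALB/c Myod null) over 1 array of the same tissue from WT embryos (genotype BALB/c), both at E13.5. These are 2 of the 4 arrays of the study, which also holds WT back muscle and back muscle labelled Myf5-null (BALB/c Myf5 null). Total RNA was taken up in Trizol, and 6 µg of it was made into biotin-labelled cRNA for Affymetrix arrays. The labels name a constitutive null genotype and give no Cre or transgene, and whether embryos were pooled, their sex, and whether fore- or hindlimbs were taken are nowhere stated. All 18193 genes that the platform annotation names were followed, and 14496 of them could be read, meaning that the signal reached 100 scaled intensity units in at least 1 limb array. The other 3697 genes stayed under 100 in both and have no ratio. With 1 array per group there is no replicate error, no test and no p-value. Each difference below is between these 2 arrays, and the spread between probe sets of one gene (median SD 0.40 on the log2 scale) is the only error that can be shown. It covers probe noise, not embryos, and the number of arrays limits the precision.

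Of the genes read, 334 (2.30%) were higher and 753 (5.19%) lower by 2-fold or more in MyoD-null limb, with the brighter array at 200 or more. This split depended on the scaling: 30.7% of the counted genes were higher, against 48.9% after a loess fit of the ratio on the signal (2.72% of genes higher and 2.84% lower) and 45.6% after quantile normalization (3.09% and 3.68%). The ratio moved with brightness. Its median was -0.26 among the 4226 genes with mean signals of 100 to 200, 0.08 among the 2100 genes between 1000 and 2000, and -0.27 among the 164 genes at 20000 or more. The 9 bacterial hybridisation controls, added in equal amounts in the standard protocol, were lower in MyoD-null limb by log2 ratios of -0.74 to -0.54. Their signals in WT back were near those of MyoD-null limb, and those in the array labelled Myf5-null back near those of WT limb. By Spearman correlation over probe sets, MyoD-null limb was nearer to WT back (0.870) than to WT limb (0.855). The 3′ over 5′ ratio of Gapdh was 12.2 in WT limb and 8.06 in the MyoD-null array, and that of Actb was 6.88 and 3.86. The lys, phe and dap spike controls gave 11.2, 17.4 and 4.23 in WT limb and 4.91, 8.50 and 3.06 in MyoD-null limb. On each of these controls WT limb had the highest ratio of the 4 arrays. The part of these technical differences in the results below was not tested, and log2 ratios after loess are given where they bear on a result.

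**Figure D1:**
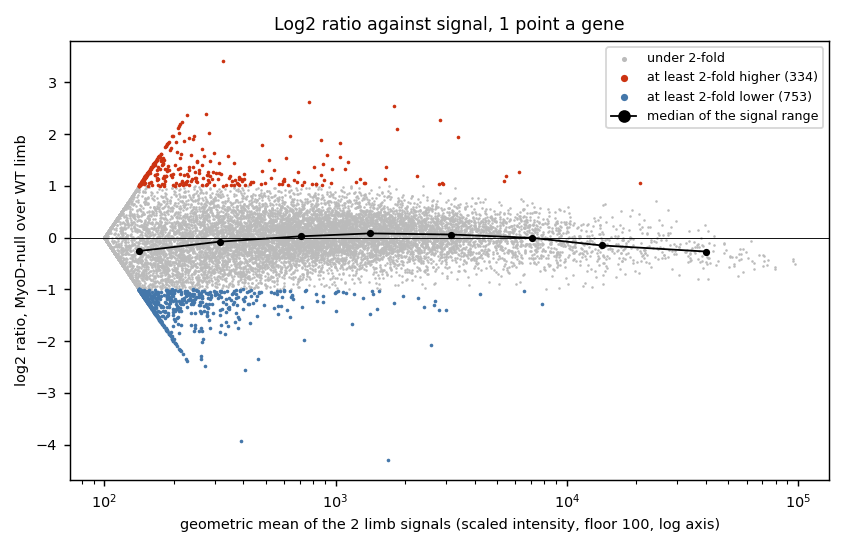
Log2 ratio of MyoD-null over WT limb (vertical axis) against the geometric mean of both limb signals (horizontal axis, scaled intensity, log scale), 1 point a gene, with 334 genes 2-fold higher in red and 753 lower in blue. The black line joins the medians of the signal ranges, which lie above 0 between 500 and 5000 and below 0 on either side, at -0.26 and -0.27 at the ends; most counted genes are dim.

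Many genes have several probe sets, and these often differed. Of 6408 genes with at least 2 readable probe sets, 2452 (38.3%) had them all on the same side of 0. Of the 1087 genes counted at 2-fold, 725 had 1 readable probe set and so no second reading. Of the other 362, 180 (49.7%) had a probe set of opposite sign, and 44 (12.2%) had a second probe set at 2-fold in the same direction. Asking for 2-fold on at least 2 probe sets with none opposite left 12 genes higher (0.187% of the 6408) and 33 lower (0.515%). Of these, 10 higher and 11 lower genes met the rule under rescaling, loess and quantile normalization alike. Every probe set is therefore given for the genes that follow.

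Myod1, the gene targeted, was lower in MyoD-null limb on both probe sets, at 1438 and 688 (-1.06) and at 209 and under 100. In the back arrays the brighter one read 2870 (WT) and 2333 (labelled Myf5-null). It was not at the floor on that probe set in MyoD-null limb, and the sources used here give neither the part of the gene that the allele lacks nor the place of these probes in it, so the genotype rests on the label. Myf5 went the other way, at 506 in WT limb and 1019 in the MyoD-null array (1.01, and 0.97 after loess), against 508 (WT) and 583 (labelled Myf5-null) in the back arrays, so it was not lower in the latter despite that label. Myog, the factor of differentiation, read 2401 and 1737 (-0.47). Myf6 stayed under 100 in both. MyoD-null limb thus had the lowest Myod1 and Myog and the highest Myf5 of the 4 arrays.

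Most partners of these factors differed by less than 2-fold on their brightest probe set. Among the E proteins, Tcf3 read 2966 and 3034 (0.03), Tcf12 read 8115 and 11648 (0.52, with -0.96 on a dimmer probe set), and Tcf4 read 6220 and 8723 (0.49, with -0.46 on another bright one). Mef2d, a MADS-box partner of MyoD in activating muscle genes, was lower on all 3 probe sets, at 1094 and 768 (-0.51), 402 and 181 (-1.15) and 379 and 128 (-1.56). Mef2c read 3688 and 3558 (-0.05) on its brightest probe set and lay between -0.95 and -0.11 on the other 4. Mef2a gave values on both sides of 0, between -0.35 and 0.24. Of the Id proteins, which bind E proteins and keep them from MyoD, Id1 read 1348 and 1475 and Id3 4165 and 4491. Id4 was lower on its 3 probe sets, between -0.63 and -0.25. Id2 read 4019 and 3646 on its brightest probe set, yet a second read under 100 and 566, at least 5.66-fold higher, so the probe sets of Id2 do not give one answer. Twist1, an inhibitor of MyoD in mesenchyme, read 4863 and 3322 (-0.55). Snai1, a zinc-finger repressor that binds E-boxes, read 148 and 368 (1.32) on 1 probe set. On the brightest probe set of each, 1 of the 20 partners and inhibitors read was higher by 2-fold or more and 0 lower. The shares of all genes were 2.30% and 5.19%. The median of the 20 was 0.05. Mef2d passed 2-fold only on its dimmer probe sets, so it is not among the genes counted.

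Genes of limb position were read next, because the labels do not say which limbs the pieces came from. Pitx1, which specifies hindlimb identity, was lower on both probe sets. The brighter one read 757 in WT limb and 243 in the MyoD-null array (log2 ratio -1.64), and the dimmer one 401 and under 100, at least 4.01-fold lower. Pitx1 stood at 1025 and 1276 in the back arrays on the brighter probe set, so MyoD-null limb was the lowest of the 4 arrays. Tbx4, the T-box factor of the hindlimb, read 815 and 484 (-0.75) on one probe set and 160 and 122 (-0.39) on the other. Hoxc10, a posterior Hox gene expressed in hindlimb, read 397 in WT limb and under 100 in the MyoD-null array, at least 3.97-fold lower on its 1 probe set. The back arrays read 832 (WT) and 854 (labelled Myf5-null). Hoxc10 and the brighter Pitx1 probe set thus gave more signal in back than in limb, so neither is confined to hindlimb tissue here. Isl1, a LIM factor of hindlimb initiation that motor and sensory neurons also express, read 289 and 128 (-1.18), while its dimmer probe set gave 0.12. Hoxc9 and Hoxb9 were under 100 in WT limb but 145 and 115 in MyoD-null limb. Taken over the list of hindlimb genes, 3 of 6 members read were lower by 2-fold or more, against 5.19% of all genes, and the median was -0.97, or -0.86 after loess and -0.55 with the median over probe sets. After loess 2 members, Pitx1 and Hoxc10, stayed at 2-fold.

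Genes of the forelimb did not mirror this. Tbx5, the T-box factor of the forelimb, read 1152 in WT limb and 1375 in the MyoD-null array (0.25), but its dimmer probe set read 261 and 138 (-0.92). Hoxc4 read 762 and 756, and Hoxc5 read 1129 and 1242 (0.14), with 0.94 on a dimmer probe set. Hoxc6 was lower on all 3 of its probe sets, at -0.54, -0.67 and -0.72. Hoxb6, read by a probe set that can share probes between transcripts, was 253 and 115 (-1.14, and -0.87 after loess). The median of the 6 forelimb genes was 0.05. Both limb pieces thus gave signal for Tbx5 and Tbx4. Pitx1, Hoxc10 and Tbx4 were lower in MyoD-null limb, while the dim Hoxc9 and Hoxb9 were not. Forelimb genes as a group were not higher. The share of fore- and hindlimb in each piece is not known, and its part in the other differences was not tested.

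**Figure D2:**
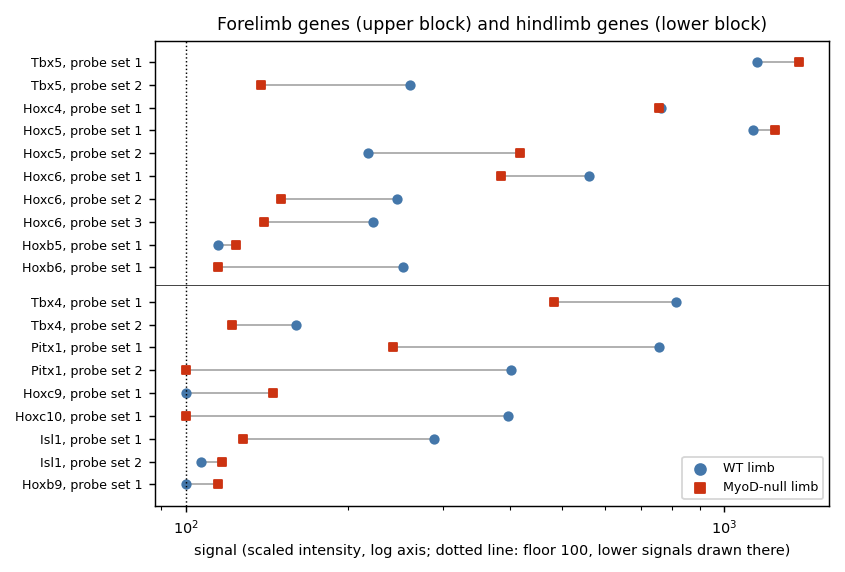
Signal (scaled intensity, log axis) of each readable probe set of forelimb genes (upper block) and hindlimb genes (lower block) in WT limb (blue circles) and MyoD-null limb (red squares). Both Pitx1 probe sets and Hoxc10 are lower in MyoD-null limb, while the brighter Tbx5 probe set is 1152 and 1375; signals under 100 are drawn at 100.

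Other axes of the limb were mixed. Hoxd13, the Hox gene of the digit region, was among the brightest Hox genes at 12104 in WT limb and 15406 in the MyoD-null array (0.35), against 157 and 167 in the back arrays, so it was bright in both limb pieces and dim in both back pieces. Hoxa13, also distal, read 318 and 123 (-1.37), and Evx2, which lies next to the Hoxd cluster, 240 and under 100, at least 2.40-fold lower. The 3 probe sets of Meis1, a factor of the proximal limb, gave -0.64, -0.71 and -0.46. Over the proximodistal list 2 of 15 genes were lower by 2-fold or more and none higher, against 5.19% and 2.30% of all genes. The list's median was -0.06. On the anteroposterior axis, Shh, the posterior signal of the limb bud, read 510 and 465 (-0.13). Its target Ptch1 read 3003 and 4422 (0.56), with -0.18 on another probe set, and Hhip, a Hedgehog-binding inhibitor, 234 and 437 (0.90), with 1.13 and -0.12 on others. Grem1, the BMP antagonist that links Shh to the apical ridge, read 604 and 274 (-1.14). Pax9, an anterior limb gene, was under 100 in WT limb and 241 in the MyoD-null array, at least 2.41-fold higher, with 0.51 and 0.11 on dimmer probe sets. Tbx18, expressed in anterior and proximal limb mesenchyme, was higher on both probe sets, at 2901 and 4613 (0.67) and at 310 and 458 (0.57). The list's median over 20 genes was 0.04. Wnt7a, the dorsal ectoderm signal, was under 100 and 296 on one probe set and 165 and 267 (0.70) on the other. Its mesenchymal target Lmx1b read 607 and 732 (0.27), and En1, the ventral ectoderm factor, 139 and under 100.

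Transcripts tied to embryo sex did not separate the arrays. Xist, the RNA of the inactive X chromosome, read 7997 in WT limb and 8067 in the MyoD-null array on its brightest probe set, with 0.23 and -0.82 on others. The Y-linked gene Eif2s3y read 261 and 445 (0.77), Uty 109 and 125 and Kdm5d 135 and 130. Each limb array therefore carried signal on both Xist and Y-linked probe sets, and neither was at the floor.

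Genes of the precursors that come before MyoD leaned higher. Of 17 progenitor genes read, 11 lay above 0 against 46.1% of all genes, none was higher by 2-fold or more, and the median was 0.18. However, 8 of the 10 with several probe sets had one of opposite sign, so the lean is not settled across probe sets. The HGF receptor Met, which muscle precursors need to migrate into the limb, read 439 and 731 (0.73), and Msc, a factor of early muscle precursors, 959 and 1577 (0.72). Pax7, which marks muscle stem cells, read 445 and 625 (0.49), with -0.20 on a dimmer probe set, and Pax3 read 155 and 158. Tcf21, a factor of head muscle precursors and of limb fibroblasts, read 254 and 105 (-1.27). Lbx1, which marks migrating limb precursors, read 447 and 355 (-0.33) on its brighter probe set and under 100 and 213 on the other, so the probe sets differ in direction.

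Genes of the contractile fibre were lower more often than genes at large. Of 61 genes of the thick filament, thin filament and Z disc that were read, 44 (72.1%) lay below 0 against 53.9% of all genes read, 5 (8.20%) were lower by 2-fold or more and 2 (3.28%) 2-fold higher. Their median was -0.38, or -0.37 after loess, while the median over all genes was -0.05 and -0.02. Across all muscle lists 131 of 209 genes read (62.7%) lay below 0, 16 (7.66%) were lower by 2-fold or more and 5 (2.39%) 2-fold higher. The 2-fold shares were thus close to the backgrounds of 5.19% and 2.30%, and most muscle genes differed by less than 2-fold. Filament and Z disc genes were also lower in the back pair, where the piece with the Myf5-null label was set against WT. The medians there were -0.71 (thick filament), -0.63 (thin filament) and -0.37 (Z disc). In the limb pair they were -0.36, -0.42 and -0.19. Lower filament genes were thus not confined to MyoD-null limb, and the reason was not tested. In bulk tissue fewer muscle cells and less RNA per cell cannot be told apart.

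Bright genes of the embryonic fibre were among those lower by less than 2-fold. Myh3, the embryonic myosin heavy chain, read 17861 in WT limb and 9209 in the MyoD-null array (-0.96), and the slow myosin Myh7 4887 and 2866 (-0.77). Mylpf, the fast regulatory light chain, read 6768 and 4026 (-0.75), and the skeletal actin Acta1 9592 and 6172 (-0.64). Tnnc2, the fast troponin C, read 4103 and 1756 (-1.22), and Tnnt1, the slow troponin T, 9319 and 4567 (-1.03). Their relatives were lower by less, with Tnni1 at -0.62, Tnnt3 at -0.47, Tnnc1 at -0.40 and Tnni2 at -0.39, and Tnnt2 was at 0.04. Tropomyosin Tpm2 was lower on all 4 probe sets, between -0.46 and -0.34. Tmod1, which caps thin filaments, read 902 and 455 (-0.99), while Neb, the giant thin-filament protein nebulin, read 172 and 242 (0.49) and its relative Nebl 368 and 649 (0.82). In the M band, Myom3 read 335 and 138 (-1.28), and Myom2 was lower on 3 probe sets, at -1.13, -1.70 and -1.70, with one more at the floor. Myom1 of the same band read 416 and 594 (0.51). At the Z disc Csrp3 read 474 and 215 (-1.14), and the small heat shock protein Cryab 1388 and 798 (-0.80).

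Some adult isoforms stood on the other side. Myh1, an adult fast myosin heavy chain, was higher on both probe sets, at 322 and 1256 (1.96) and at 346 and 1141 (1.72), against 538 and 475 and then 489 and 181 in the back arrays. Both probe sets can share probes between transcripts, so the signal cannot be assigned to Myh1 alone. The other adult fast myosins gave little, with Myh4 at 143 in MyoD-null limb and under 100 in WT limb and Myh2 under 100 in both. Myh8, the perinatal myosin, read 1508 and 1424 (-0.08). Mylk2, the skeletal myosin light chain kinase, was under 100 in WT limb and 204 in the MyoD-null array, at least 2.04-fold higher. Car3, the carbonic anhydrase abundant in slow fibres, read 311 and 1905 (2.62) on one probe set and 178 and 335 (0.91) on the other. MyoD-null limb had the highest Car3 and Myh1 of the 4 arrays on the brighter probe set of each. Eef1a2, the translation elongation factor that muscle and neurons use after birth, read 140 and 570 (2.02), but 380 and 639 in the back arrays, so WT limb was the lowest array there.

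Genes of fusion and metabolism were mostly lower. Of 24 differentiation and fusion genes, 19 (79.2%) lay below 0, against 53.9% of all genes read. Their median was -0.37 (-0.25 after loess and -0.24 with the median over probe sets). Of them 2 were lower by 2-fold or more and 0 higher, against 5.19% and 2.30% of all genes. Klhl41, which stabilises the myofibril, read 2359 and 851 (-1.47), and Cdh15, the cadherin of myoblasts, 908 and 442 (-1.04). Mymx, which opens the fusion pore, read 1249 and 717 (-0.80), and Adam12, a metalloprotease of fusing myoblasts, 646 and 350 (-0.88). Of 22 triad genes 14 (63.6%) were below 0, nearer to the 53.9% of all genes, and 1 was lower by 2-fold or more. The triad median of -0.29 was -0.06 after loess. Sln, which restrains the calcium pump, read 584 and 239 (-1.29), and Casq2, a calcium store protein, 949 and 545 (-0.80). Membrane channels were split, with 4 of 7 genes read above 0 and a median of 0.03 that ranged from -0.44 with a floor of 200 to 0.22 after quantile normalization. Of them Kcnj11, a subunit of ATP-sensitive potassium channels, read 464 and 207 (-1.16). Dtna, a partner of dystrophin, was 300 and under 100, with -0.17 on a dim probe set. In metabolism 13 of 18 genes (72.2%) were below 0, with a median of -0.33, and 2 were lower and 1 higher by 2-fold or more. The muscle creatine kinase Ckm read 458 and 169 (-1.44), with 0.05 on a dim probe set. The muscle phosphoglycerate mutase Pgam2 read 699 and 368 (-0.93), and the muscle cytochrome oxidase subunit Cox6a2 693 and 361 (-0.94). Medians in the back pair were -0.32 for fusion, -0.43 for triad and -0.31 for metabolism genes, and 0.34 for membrane channels.

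**Figure D3:**
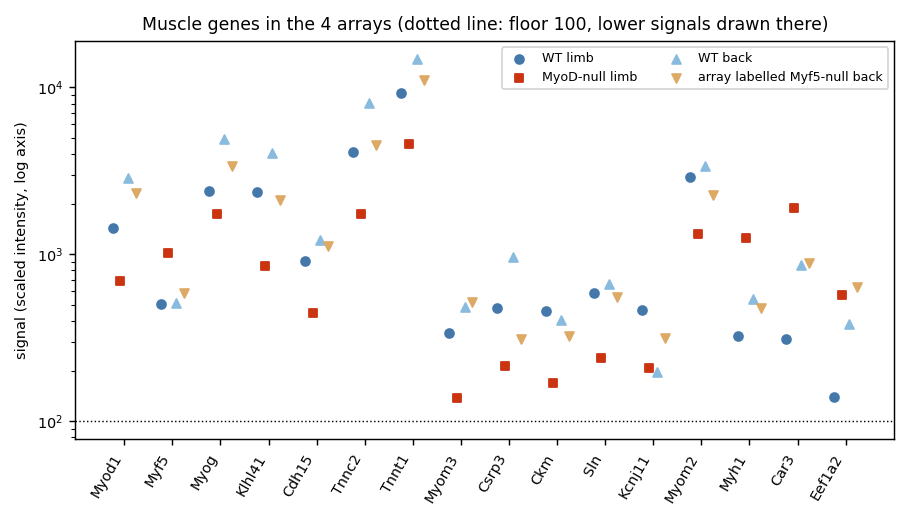
Signal (scaled intensity, log axis) of 16 muscle genes in WT limb, MyoD-null limb, WT back and the array labelled Myf5-null back, 1 point an array. Klhl41, Tnnc2, Tnnt1, Myom3 and Ckm are lowest in MyoD-null limb, and Myh1 and Car3 are highest there; signals under 100 would be drawn at 100.

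Promoters of the lower muscle genes are shown because MyoD acts on such regions through E-boxes. Of 14 muscle-list genes that were lower by 2-fold or more under all 3 scalings, 8 have an entry among the RefSeq promoters of GRCm38.p6. The 250 bases before the annotated start are printed 5′ to 3′ along the gene for 5 of them, in lower case with each CANNTG in capitals.
Klhl41, plus strand, chr2:69669870-69670119: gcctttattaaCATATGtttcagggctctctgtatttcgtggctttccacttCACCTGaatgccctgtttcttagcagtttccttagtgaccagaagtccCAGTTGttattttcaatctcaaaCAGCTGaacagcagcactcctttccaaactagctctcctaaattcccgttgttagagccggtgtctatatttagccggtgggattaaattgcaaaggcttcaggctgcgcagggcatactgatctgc
Tnnc2, minus strand, chr2:164779735-164779984: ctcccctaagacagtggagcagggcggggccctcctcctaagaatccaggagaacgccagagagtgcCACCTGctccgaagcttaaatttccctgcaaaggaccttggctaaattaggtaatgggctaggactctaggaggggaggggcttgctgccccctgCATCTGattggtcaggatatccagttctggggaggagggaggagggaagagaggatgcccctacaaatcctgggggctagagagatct
Tnnt1, minus strand, chr7:4515976-4516225: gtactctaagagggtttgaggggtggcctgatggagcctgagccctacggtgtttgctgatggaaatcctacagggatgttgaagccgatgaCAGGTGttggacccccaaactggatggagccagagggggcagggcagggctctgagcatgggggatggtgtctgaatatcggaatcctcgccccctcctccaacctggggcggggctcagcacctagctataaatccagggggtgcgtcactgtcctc
Ckm, plus strand, chr7:19410844-19411093: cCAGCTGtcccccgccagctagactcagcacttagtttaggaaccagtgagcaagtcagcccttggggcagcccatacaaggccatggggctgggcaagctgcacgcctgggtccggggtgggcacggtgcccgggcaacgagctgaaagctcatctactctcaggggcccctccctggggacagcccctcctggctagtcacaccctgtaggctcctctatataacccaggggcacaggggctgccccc
Cdh15, plus strand, chr8:122848124-122848373: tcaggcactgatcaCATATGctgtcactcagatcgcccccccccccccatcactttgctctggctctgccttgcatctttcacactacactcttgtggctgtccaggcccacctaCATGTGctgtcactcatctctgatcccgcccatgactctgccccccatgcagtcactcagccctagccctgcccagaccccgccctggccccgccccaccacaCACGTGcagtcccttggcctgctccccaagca
Klhl41 holds 4 such boxes, 1 of them CAGCTG, at -127 from the start. Ckm holds 1, CAGCTG, at -249, Tnnc2 holds 2, Tnnt1 holds 1 and Cdh15 holds 3. All 9 windows of the 8 genes hold a CANNTG, but so do 66.2% of the 32851 windows in the table, since the motif is short and reads the same on both strands in its fixed letters. CAGCTG, a form that MyoD prefers, is in 2 of the 9 windows (22.2%), in 24.5% of 196 windows of muscle-list genes read, and in 13% of all windows. These are letters in a window. They show no binding, and the genes were picked by their values.

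Genes that met the 2-fold rule on several probe sets were few, and most were not muscle genes. Cap1, an adenylyl-cyclase-associated protein that recycles actin, was higher on both, at 743 and 4297 (2.53) and at 171 and 477 (1.48). Edem1, which hands misfolded proteins to degradation in the endoplasmic reticulum, was under 100 in WT limb but 471 and 295 on its 2 probe sets in MyoD-null limb. In the back arrays the brighter Edem1 probe set read 496 and 314, so WT limb was the array apart. Ranbp9, a scaffold protein that binds Ran, read 444 and 1063 (1.26) and 152 and 322 (1.08). Rab6b, a Golgi trafficking GTPase of neurons, read 681 and 1880 (1.47) on its brightest probe set and lay between 0.15 and 1.18 on the other 3. Ppm1k, the phosphatase that activates branched-chain amino acid breakdown, read 249 and 500 (1.01) and under 100 and 228. Lcor, a nuclear receptor corepressor, and Mbnl3, a splicing regulator that opposes muscle differentiation, each had 2 dim probe sets past 2-fold while the brightest gave 0.08 and 0.02. Fam76b and Slco3a1, an organic anion transporter, showed the same arrangement.

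On the lower side Otud3, a deubiquitinase, differed most, at 1522 and under 100, at least 15.2-fold, and at 250 and under 100 on its second probe set. The back arrays read 1017 and 1290, so MyoD-null limb was the array apart. Arsk, a lysosomal sulfatase, read 647 and 116 (-2.48) and 264 and 103 (-1.36), against 424 and 428 in the back. Cdh3, the P-cadherin of epidermis and placodes, read 521 and under 100, at least 5.21-fold lower, and 243 and 118 (-1.04). Slc6a17, a neuronal amino acid transporter, read 576 and 179 (-1.69) and 323 and 126 (-1.36). Smtnl2, a smoothelin-like protein found in muscle, read 655 and 270 (-1.28) and 618 and 194 (-1.67). Csf1, the growth factor of macrophages, was lower on 3 probe sets, at -1.43, -1.24 and -0.96, and Tuba4a, an alpha tubulin of mature cells, on 3, at 3843 and 1518 (-1.34), 932 and 466, and 253 and 145 (-0.81). Tnfrsf1b, a receptor for tumour necrosis factor, Cplx1, a clamp of synaptic vesicle release, Ppp6r2, Dhx38 and Mospd3 read 291 to 410 in WT limb on the probe set with the higher signal and 143 or less in MyoD-null limb. The H2-K1 gene had 2 probe sets past 2-fold but its brightest read 773 and 673, and all 3 can share probes with related class I genes. After loess 20 of the 33 lower genes no longer had 2 probe sets at 2-fold, Myod1, Cdh3, Csf1 and Tnfrsf1b among them, and neither did Fam76b of the 12 higher ones. Of the 12 higher genes both back arrays lay between the limb arrays for 5, and of the 33 lower genes for 12. MyoD-null limb lay beyond the other 3 arrays for a further 4 and 9, and WT limb for a further 3 and 12.

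**Figure D4:**
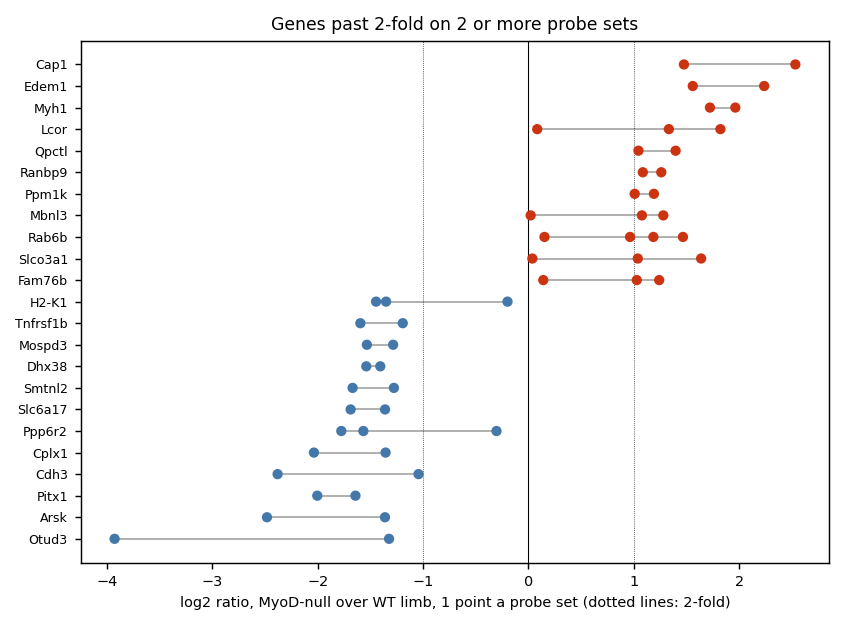
Log2 ratio of MyoD-null over WT limb (horizontal axis) for each readable probe set of the 11 named genes that were higher (red) and the 12 leading genes that were lower (blue) by the rule of 2 probe sets. Otud3 reaches -3.93 and Cap1 2.53, while Lcor, Mbnl3, Slco3a1, Fam76b and H2-K1 each have a probe set near 0; dotted lines mark 2-fold.

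Some large ratios rest on 1 probe set or on one of several. Psmd6, a subunit of the proteasome lid, read 7478 in WT limb and 383 in the MyoD-null array (-4.29), the largest ratio among proteasome genes, but its other probe set read 2924 and 2615 (-0.16). Over the 34 proteasome genes the median was 0.03, with 1 gene at 2-fold each way, against 2.30% of all genes higher and 5.19% lower. Cldn34c1, a claudin, was at least 10.7-fold higher, at 1068 from under 100, with 0.35 on a dimmer probe set. Gorasp1, a Golgi stacking protein, and Mcm9, a helicase of DNA repair, were at least 5.16-fold and 4.55-fold higher on their 1 readable probe set. Ino80b, a chromatin remodelling subunit, and Acsl6, a fatty acid activating enzyme, were at least 4.53-fold and 4.18-fold lower. Of genes read by 1 probe set and above the floor in both arrays, Crym, a thyroid-hormone-binding protein, read 121 and 629 (2.38), and Adat2, a tRNA deaminase, 450 and 1668 (1.89). Grip2, a scaffold of glutamate receptors, read 988 and 167 (-2.56), against 841 and 836 in the back arrays. Ubald1 read 589 and 116 (-2.34), Tmc8 read 580 and 118 (-2.29) and Amacr, a racemase of fatty acid oxidation, 633 and 174 (-1.86). These values have no second reading.

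Factors by which muscle and limb tissue address nerves went both ways. Of the 90 trophic and axon guidance genes read, 6 (6.67%) were higher by 2-fold or more and 7 (7.78%) lower, against 2.30% and 5.19% of all genes. Of 21 neurotrophic genes read, 3 were lower by 2-fold or more, 1 higher, and the median was -0.07. Gdnf, a survival factor of motor neurons, read 310 and 114 (-1.45), its relative Nrtn 864 and 337 (-1.36), and the cytokine Lif 245 and under 100. Each has 1 readable probe set, and all 3 remained at 2-fold after loess. Gdnf was under 100 in both back arrays. Of the semaphorins, plexins and neuropilins, 31 were read, 4 were higher by 2-fold or more and 2 lower (3 and 1 after loess), with a median of 0.04, and 14 of the 18 with several probe sets had one of opposite sign. Sema5a was higher on its 2 bright probe sets, at 929 and 1922 (1.05) and at 770 and 1707 (1.15), but lower on 2 dim ones (-0.91 and -0.49). The repellent Sema3f read 4004 and 9587 (1.26) on one probe set and 0.47 and -0.03 on others. Plexin Plxna4 was lower on both, at -0.88 and -0.77. Of 19 ephrin and Eph genes 2 were lower by 2-fold or more, Epha5 and Epha8, both under 100 in MyoD-null limb, and Efna3 was lower on both probe sets (-0.90 and -0.81). Draxin, a repellent of commissural axons, was at least 2.34-fold higher. At the neuromuscular junction the median of 20 genes was 0.05, with Lama5, a laminin of basement membranes, at 1141 and 451 (-1.34; -0.26 on another probe set), the receptor subunit Chrna1 at 738 and 442 (-0.74) and its organiser Agrn at 4049 and 5159 (0.35).

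Signalling lists lay close to 0, with single members apart. Of 236 signalling genes read, 7 (2.97%) were higher by 2-fold or more and 8 (3.39%) lower, against 2.30% and 5.19% of all genes. Among Wnt ligands and receptors 1 of 27 was lower by 2-fold or more, Wnt2 at 228 and 107 (-1.09, and -0.80 after loess), and 3 were higher, Wnt7a, Wnt10a at 120 and 243 (1.01) and Fzd9 at 116 and 304 (1.39), and Fzd7, a receptor used in muscle precursors, read 1170 and 2138 (0.87). Lgr5, a receptor for R-spondins, read 168 and 372 (1.15). In the BMP list Bmpr1b, a receptor of cartilage condensations, read 661 and 1374 (1.06), with 0.07 and 0 on dim probe sets, and Gdf5, the joint ligand, 726 and 1304 (0.85). Among the Notch genes, Notch4 was lower on 3 probe sets, between -1.03 and -0.65, and Lfng, which modifies Notch receptors, was at least 2.23-fold higher. Egf was 387 and under 100, at least 3.87-fold lower, and Tead4, a Hippo pathway factor active in muscle, 259 and under 100, with 0.11 on a dim probe set. FGF genes had a median of 0.17, insulin-like growth factor genes of -0.01 and TGF beta genes of 0.02, and no member of the last pair reached 2-fold.

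Markers of the other tissues in the piece did not move as one. Cartilage genes were higher in small steps: 16 of 18 lay above 0 (88.9% against 46.1% of all genes), none reached 2-fold, the median was 0.22, and the summed signal of the 20 annotated markers was 25046 in WT limb and 29259 in the MyoD-null array. Yet 6 of the 7 cartilage genes with several probe sets had one of opposite sign. The median over probe sets was 0.26. Sox9, the factor that commits cells to cartilage, read 1419 and 2078 (0.55) but -0.78 on a dimmer probe set, Col2a1 read 3343 and 4173 (0.32) and Matn4 2532 and 3207 (0.34). Tendon genes leaned the other way, with 8 of 10 below 0, a median of -0.41 (-0.23 without probe sets that can share probes) and sums of 14121 and 11611. The tendon factor Scx read 554 and 218 (-1.35), with -0.22 on a dim probe set, and Col12a1 1648 and 618 (-1.42), with 0.56 on another. Tnmd, a late tendon gene, read 676 and 535 (-0.34), and Mkx 990 and 1146 (0.21). Of the connective tissue genes, Lum, a small collagen-binding proteoglycan, read 3668 and 7791 (1.09), while Dcn was lower on both probe sets (-0.55 and -1.57) and Col1a1 on both (-0.88 and -0.26). The list used for muscle connective tissue fibroblasts holds Tbx4, Tbx5 and Tcf4 but not Col1a1 or Tcf7l2. Tcf4 is the E protein gene described above, so not every member is particular to fibroblasts. The list's median was -0.24. It turned to 0.03 after loess, so the list has no settled direction.

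Blood, pigment and visceral markers were mostly dimmer in MyoD-null limb. Red blood cell markers summed to 123386 and 88900, of which the embryonic globin Hbb-y gave 115330 and 81483 (-0.50, or -0.13 after loess), at a brightness where most genes were lower. The markers Klf1 (263 and 147) and Slc4a1 (759 and 451) were lower too, and Alas2, an enzyme of haem synthesis, read 537 and 720 (0.42). Melanocyte genes had a median of -0.63 (-0.46 after loess and -0.36 with a floor of 200), with Dct at 333 and 159 (-1.06) and Tyr and Slc45a2 at 261 and 257 against under 100, and 5 of 8 were under 100 in MyoD-null limb against 1 in WT limb. Of 8 liver and visceral markers 6 were under 100 in MyoD-null limb and 3 in WT limb, and the highest was Alb at 225 in WT limb. Their median was -0.78, or -0.56 after loess. Dim genes at large leaned the same way: 56.0% of all probe sets reached 100 in MyoD-null limb against 61.5% in WT limb. All genes with mean signals of 100 to 200 had a median of -0.26. The part of this brightness trend in the pigment and visceral values was not tested. Macrophage markers summed to 6264 and 5104, with Cx3cr1 at 289 and under 100 and Csf1r lower on 3 probe sets (-0.44 to -0.09). Endothelial sums were 8696 and 8518 and epidermal sums 20464 and 20803. The part of these cells in the muscle and nerve results was not tested.

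**Figure D5:**
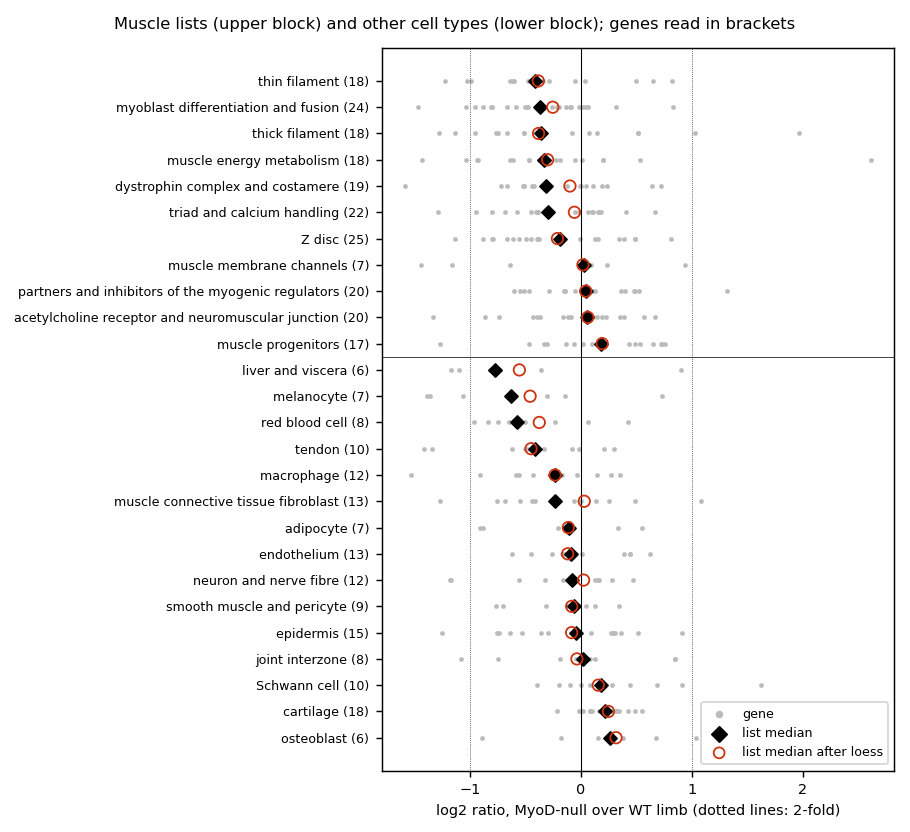
Log2 ratio of MyoD-null over WT limb (horizontal axis) for the genes of 11 muscle lists (upper block) and 15 lists of other cell types (lower block) with at least 5 genes read, 1 grey point a gene, with the list median (black diamond) and the median after loess (red circle). Filament, fusion, metabolism and tendon medians lie below 0 under both, cartilage and progenitor medians above 0, and the medians of connective tissue, costamere and triad genes move toward 0 after loess.

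Over 488 genes of general cell functions 54.1% lay below 0, close to the 53.9% of all genes, and a few lists leaned one way by small steps. Of 55 respiratory chain and ATP synthase genes 45 lay below 0 (81.8% against 53.9%), none at 2-fold, with a median of -0.29, or -0.21 after loess and -0.077 for the 41 genes left without probe sets that can share probes. Cox6c read 16326 and 8505 (-0.94; -0.20 on another probe set), whereas the ATP synthase subunit Atp5b read 11456 and 17834 (0.64) and Sdhd, of complex II, 1465 and 2432 (0.73). Ribosomal protein genes were below 0 in 31 of 35, with a median of -0.33, but these are among the brightest on the array, the median was -0.13 after loess, and it was 0.09 without probe sets that can share probes. The back pair gave 0.33 for the same list. Mitotic genes were above 0 in 16 of 23 (46.1% of all genes were), with a median of 0.19 that was 0.091 with the median over probe sets, and 9 of the 13 with several probe sets had one of opposite sign. Plk1 stood at 1483 and 2004 (0.43) and Cdk1 at 3411 and 4521 (0.41). S phase genes lay above 0 in 12 of 24, with a median of 0.04. Among cell cycle inhibitors, Cdkn2d read 115 and 290 (1.33) and Cdkn1b 963 and 498 (-0.95). Splicing regulators had a median of 0.18, with Ptbp2, a neuronal and muscle splicing repressor, higher on both probe sets, at 1476 and 2613 (0.82) and at 106 and 261 (1.29), and Khdrbs3 at 166 and 396 (1.25). Of 19 heat shock genes 3 were lower by 2-fold or more, against 5.19% of all genes. Of the 14 with several probe sets, 9 had one of opposite sign. The 3 were Hspb1, with -1.04 and -0.94 on its probe sets, the mitochondrial chaperonin Hspe1, with -1.09 and -0.92, and Hspa1a, at 348 and under 100, on 1. Pdk1, a kinase that turns pyruvate from the mitochondrion, was higher on 3 probe sets, at 0.99, 2.19 and 0.26.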

How the data were processed

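Per the labels, total RNA of each dissected piece was hybridised to 1 Affymetrix array. The deposited table holds linear intensities, 1 per array and probe set. The submitters' processing notes name MAS5, with the version not given in the sources used here. Detection calls and scanner files were not used here. Each array was rescaled to a 2% trimmed mean of 500, a floor of 100 was set, and MyoD-null over WT limb was taken as a log2 ratio with Python 3.11.15, numpy 2.4.6 and pandas 2.3.3. A ratio against a signal under 100 is a bound ("at least"), computed against 100. Median signals were 153 (WT limb) and 125 (MyoD-null limb), and 61.5% and 56.0% of 45101 probe sets reached 100.

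The platform annotation gave 34958 probe sets 1 gene symbol and 932 several, which were not used, and it lists no gene for 9211. Of the 18193 genes, 18033 matched a RefSeq gene of GRCm38.p6 and 0 symbols were updated. The probe set brightest on average (mean log2 over the 4 arrays) stood for its gene. A gene was counted at 2-fold or more with the brighter limb array at 200 or more. Members and the 73 gene lists were chosen with earlier results of these data known. Lists are described by counts and medians beside those of all genes read. Named genes are the myogenic regulators and partners, readable position and sex genes, up to 4 members per list with the largest ratios plus those needed for both directions, the 12 leading genes each way by several probe sets, the 6 largest bounds each way and the 8 largest ratios each way on 1 probe set. Clone-type names were passed over, and the text gives part of these. Further list members, and Csf1, Tuba4a and the genes whose promoters are printed, were named after their values were seen. The steps were tested on simulated data. Alternatives tried were the values without rescaling, quantile normalization, loess with a span of 0.3 within the limb pair, a floor of 50 or of 200, no floor but a pseudocount of 100, the median over probe sets, and omission of probe sets named as sharing probes.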

Additional observations from a re-analysis of the deposited data

How the results depend on the processing

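With 1 array per group no replicate could be left out. No paired analysis was possible because each group holds 1 array. With no rescaling and with a floor of 50, all 4 counts stayed within 1.5 times. Higher genes, 334 in the report, were 115 with a floor of 200 and 145 with a pseudocount of 100. Lower genes, 753, were 412 after loess, 181 with the floor of 200 and 323 with the pseudocount. Genes higher on several probe sets, 12, were 25 after quantile normalization, 21 after loess, 3 with the floor of 200 and 5 with the pseudocount. Those lower, 33, were 17, 14, 4 and 9 under the same settings and 20 without shared-probe probe sets. A higher floor and a pseudocount shrink the ratios of dim genes by construction. The causes of the other shifts were not tested.

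Of 584 list medians under the alternatives, 495 stayed within the median spread (SD) of a gene's probe sets divided by the square root of the list's size, and 46 changed sign. Of these 46, 8 belong to lists whose reported median was larger than that spread. The spread treats the genes of a list as independent readings, although all come from the same pair of arrays. Connective tissue turned to 0.029 after loess. Wnt antagonists, agonists and targets, below 0 as reported (-0.12), turned to 0.044 with quantile normalization and 0.026 after loess, and imprinted growth genes (-0.13) to 0.082 and 0.054. Without shared-probe probe sets FGF genes turned to -0.031, ribosomal proteins to 0.087 and heat shock genes to 0.034. Sema3f (-0.030) and Tead4 (0.11) also changed sign there, because another probe set then stands for the gene.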
